A study of Mus musculus with 6 samples.

Results

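The Cyp2d genes encode a subfamily of cytochromes P450 that lies as 1 cluster on mouse chromosome 15. Members were chosen by gene symbol: Cyp2d9, Cyp2d10, Cyp2d11, Cyp2d12, Cyp2d13, Cyp2d22, Cyp2d26 and Cyp2d40. Of these 8 genes, 7 had a row among the 55487 genes of the tables, and 6 passed the filter on low counts, as did 14286 genes in all. Cyp2d13 was not analysed here. Liver RNA was sequenced from male C57/Bl6J mice on a high-fat diet, with 3 libraries of mutant livers and 3 of control livers. The mutant livers carry the genotype label RXRa f/f Alb cre+/-, and the series' design text names the mutation as Rxra S65A, a change in the retinoid X receptor alpha. The control livers are labelled Alb cre +/-. Both groups therefore carry Cre recombinase driven by the promoter of albumin, a hepatocyte gene, although the sample titles call the controls WT and the mutants Cre. Age is not among the labels. They also do not say whether libraries came from separate animals, and p-values therefore reflect only how far these libraries differ.

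Cytochromes P450 are haem proteins of the endoplasmic reticulum that oxidise drugs, steroids and fatty acids, using electrons passed on mainly by P450 oxidoreductase (Por) and in part by cytochrome b5. Humans have CYP2D6 as the functional member of the subfamily, an enzyme that clears many antidepressants, opioids and beta blockers, whereas rodents have several genes. In mouse liver, Cyp2d9 encodes a testosterone hydroxylase that is known as more abundant in males under the male pattern of growth hormone secretion, and human CYP2D6 transcription is known to depend on HNF4A, a nuclear receptor of hepatocytes.

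The promoters of 5 members are shown so that the values of each gene below can be read beside the sequence at its start. Each is the 250 bases before the RefSeq transcript start on build GRCm38.p6, written 5′ to 3′ on the gene's own strand. The window is chr15:82452127-82452376 on the plus strand for Cyp2d9, chr15:82407195-82407444 on the minus strand for Cyp2d10, chr15:82394023-82394272 on the minus strand for Cyp2d11, chr15:82764123-82764372 on the minus strand for Cyp2d40 and chr15:82794246-82794495 on the minus strand for Cyp2d26. Capitals mark a stretch of 13 bases that aligns between the 5 promoters and, after it, the TATA-like run TATAAGG.
Cyp2d9 promoter: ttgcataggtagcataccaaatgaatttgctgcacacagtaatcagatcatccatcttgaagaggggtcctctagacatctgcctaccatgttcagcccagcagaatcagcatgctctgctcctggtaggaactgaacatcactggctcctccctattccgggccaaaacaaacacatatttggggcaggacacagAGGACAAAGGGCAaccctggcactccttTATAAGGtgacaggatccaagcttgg
Cyp2d10 promoter: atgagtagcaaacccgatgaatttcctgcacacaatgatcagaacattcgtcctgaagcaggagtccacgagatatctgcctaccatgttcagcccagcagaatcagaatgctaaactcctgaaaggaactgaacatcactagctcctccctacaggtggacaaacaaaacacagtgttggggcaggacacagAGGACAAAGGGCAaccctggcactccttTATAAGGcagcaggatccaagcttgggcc
Cyp2d11 promoter: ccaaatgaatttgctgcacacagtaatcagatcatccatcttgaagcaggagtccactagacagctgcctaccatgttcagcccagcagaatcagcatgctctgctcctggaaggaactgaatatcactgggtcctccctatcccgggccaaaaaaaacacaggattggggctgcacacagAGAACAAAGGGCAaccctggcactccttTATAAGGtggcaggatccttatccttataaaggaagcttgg
Cyp2d40 promoter: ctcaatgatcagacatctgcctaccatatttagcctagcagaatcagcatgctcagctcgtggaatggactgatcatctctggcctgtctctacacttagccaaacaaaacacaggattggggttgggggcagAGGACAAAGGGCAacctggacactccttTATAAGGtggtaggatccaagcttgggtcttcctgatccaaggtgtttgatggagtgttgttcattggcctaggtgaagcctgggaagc
Cyp2d26 promoter: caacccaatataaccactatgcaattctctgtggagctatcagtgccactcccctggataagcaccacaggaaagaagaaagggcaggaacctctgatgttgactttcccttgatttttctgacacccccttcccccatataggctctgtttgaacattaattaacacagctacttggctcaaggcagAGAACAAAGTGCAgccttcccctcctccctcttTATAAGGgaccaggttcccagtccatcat
Cyp2d12 and Cyp2d22 are described by their values alone.

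The capitals of Cyp2d9, Cyp2d10 and Cyp2d40 match AGGNCANAGGNCA on the gene's strand, a direct repeat of nuclear receptor sites spaced by 1 base, a layout that HNF4A and heterodimers of the retinoid X receptor are known to bind in general. This motif was chosen after the promoters had been read. It occurred on either strand in 90 of 27025 RefSeq promoters of the same length (0.333%). The first base of the stretch lies at -54 from the RefSeq start in Cyp2d9, at -57 in Cyp2d10 and at -117 in Cyp2d40. These positions depend on the start used, and the gene spans given below come from another annotation. In it Cyp2d40 begins at 82764183 and Cyp2d26 at 82794294, inside their windows. Counted from there, the stretch of Cyp2d40 lies closer to the start than -117. The window of Cyp2d9 lies within its gene span. Counted from 1 at the 5′ end of the stretch and relative to Cyp2d9, Cyp2d11 carries G3A, and Cyp2d26 carries G3A and G10T. These 2 members do not match the motif. TATAAGG, also chosen after the sequences had been read, was in 5 of 5 member promoters and in 1.94% of all promoters. The single receptor site AGGTCA (13.8% of all promoters) and the STAT site TTCNNNGAA (7.18%) were in none of the 5. The GABP core CCGGAA (12.2% of all promoters) was in 1 of 5, on the opposite strand of Cyp2d9 and overlapping no other motif named here. Over the aligned windows, gaps counted, Cyp2d9 and Cyp2d10 were identical at 82.3% of positions, as were Cyp2d9 and Cyp2d11. The share was 46.6% for Cyp2d9 and Cyp2d26 and 47.9% for Cyp2d9 and Cyp2d40. These 2 low shares differ in kind. Cyp2d40 had 150 matches, 37 mismatches and 126 gap positions, and Cyp2d26 had 125 matches, 107 mismatches and 36 gap positions. A match is a description of letters, and binding was not measured.

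Library totals ranged from 35847386 to 43162557 estimated counts. Counts were scaled by TMM, which sets the typical gene equal in both groups, and are given as TMM-scaled CPM (counts scaled to library size). The TMM factors were 0.863 to 0.886 in the mutant libraries and 1.145 to 1.151 in the control libraries, so the choice of scaling moves every gene. For any one gene, going from TMM-scaled CPM to TPM (a transcript level scaled by length) moves the log2 difference of mutant against control by -0.60. The median log2 fold change over all tested genes was 0.00 with TMM, -0.40 with library totals and -0.48 with limma on log2(TPM + 1). Differences below are read relative to these medians. By edgeR's quasi-likelihood test at a Benjamini-Hochberg adjusted p under 0.05, 1923 of 14286 tested genes (13.5%) were called, 949 higher (6.64%) and 974 lower (6.82%) in mutant livers.

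Rxra, the gene named in the genotype, was detected in every library, and values per gene do not separate mutant from normal Rxra transcripts. It had 699.9, 522.4 and 609.1 CPM in mutant livers, against 501.1, 470.8 and 413.6 CPM in control livers. The log2 fold change was 0.40 ± 0.13 (SE) and was not called (adjusted p = 0.0724). It was called with no filter (adjusted p = 0.0356), with DESeq2 (0.0259) and without mutant library 2 (0.0388, log2 fold change 0.50), and it was -0.20 on the TPM scale (adjusted p = 0.24).

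By TPM, which allows levels to be compared between genes, Cyp2d transcripts were among the abundant messages of these livers. Cyp2d9 was the highest member in mutant livers, with a mean of 1533 ± 7.49 TPM, followed by Cyp2d10 (1039 ± 50.3), Cyp2d26 (689 ± 51.3), Cyp2d22 (95.4 ± 5.16) and Cyp2d40 (90.4 ± 10.8; SD, n = 3 for each). The order in control livers was Cyp2d10 (947 ± 35.02 TPM), Cyp2d26 (844 ± 33.3), Cyp2d9 (694 ± 275), Cyp2d22 (116 ± 6.97) and Cyp2d40 (83.8 ± 4.05; SD, n = 3 for each). Within mutant livers, Cyp2d9, Cyp2d10 and Cyp2d26 did not overlap with each other, and the ranges of Cyp2d22 and Cyp2d40 overlapped. Within control livers, the range of Cyp2d9 took in those of both Cyp2d10 and Cyp2d26, which themselves did not overlap. Cyp2d9 ranked 83, 77 and 85 among all genes by TPM in the mutant libraries, against 119, 261 and 191 in the control libraries. Cyp2d12 and Cyp2d11 were below 1 TPM in all 6 libraries.

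**Figure D1:**
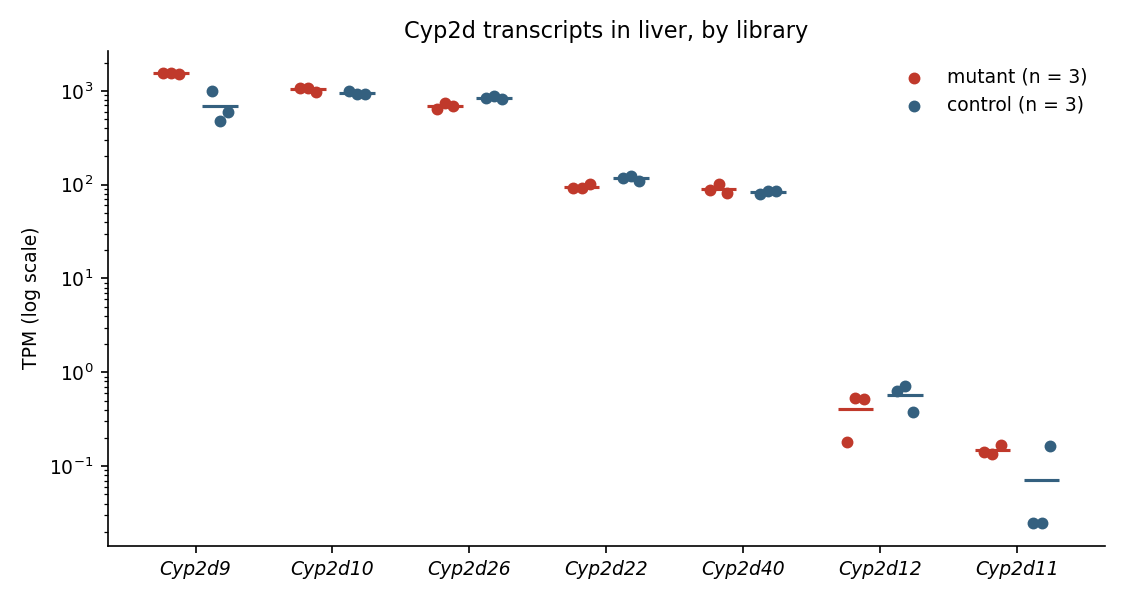
TPM of the 7 Cyp2d genes with a row, on a log axis, in 3 mutant libraries (left in each pair) and 3 control libraries, with each point a library and the bar the group mean. Cyp2d9 lies at 1525 to 1538 TPM in mutant livers, above all 3 control libraries at 476.9 to 1003 TPM, whereas Cyp2d26 and Cyp2d22 lie lower in mutant livers on this scale.

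Cyp2d9, Cyp2d10 and Cyp2d40 rose in mutant livers with TMM scaling, Cyp2d26, Cyp2d22 and Cyp2d12 did not pass the test, and no member fell. The 3 of 6 tested members called higher stand beside 6.64% of all tested genes called higher. Mutant CPM lay above control CPM in every library pairing for 5 of the 6, beside 17.4% of all tested genes. The difference was largest for Cyp2d9 (ENSMUSG00000068086.6, chr15:82433437-82456845, plus strand, mm10). It had 1538, 1537 and 1525 TPM in mutant livers, against 1003, 476.9 and 601.5 TPM in control livers. The mutant libraries were close to each other, the control libraries spread more widely with control library 1 the highest, and the groups did not overlap. On the scale used for the test it had 2167, 2364 and 2196 CPM in mutant livers, against 975.5, 463.3 and 574.4 CPM in control livers. The fold change was 3.34 (log2 fold change 1.74 ± 0.25 SE, adjusted p = 0.00398), and 112 of the 949 genes called higher had a larger one. Cyp2d9 was also called with library totals (1.34, adjusted p = 0.00537) and with limma on log2(TPM + 1) (1.21, adjusted p = 0.00464). In these fits 2.05% and 1.88% of all tested genes were called higher. In bulk tissue, fewer cells of a type and less RNA per cell cannot be told apart, and this holds for every level given here.

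Cyp2d10 (ENSMUSG00000094806.2, chr15:82402846-82407195, minus strand) had 966.9, 1049 and 905.2 CPM in mutant livers, against 614.3, 572.2 and 572.4 CPM in control livers. Its log2 fold change was 0.73 ± 0.09 (SE, adjusted p = 0.00246). All 3 mutant libraries were above all 3 control libraries in CPM, but in TPM the groups overlapped, with 1071, 1065 and 981.1 TPM in mutant livers and 986.4, 919.2 and 935.5 TPM in control livers. Cyp2d10 was called with library totals (0.33, adjusted p = 0.0249) and not with limma on log2(TPM + 1) (0.13, adjusted p = 0.167).

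Cyp2d40 (ENSMUSG00000068083.2, chr15:82759833-82764183, minus strand) had 80.5, 103 and 76.4 CPM in mutant livers, against 50.2, 54.6 and 53.7 CPM in control livers. Its log2 fold change was 0.71 ± 0.13 (SE, adjusted p = 0.0105). The groups did not overlap in CPM and overlapped in TPM (87.5, 102 and 81.3 in mutant livers, 79.1, 86.1 and 86.1 in control livers). It was not called with library totals (0.31, adjusted p = 0.0829) or with limma on log2(TPM + 1) (0.10, adjusted p = 0.391).

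For Cyp2d26 and Cyp2d22 the sign of the difference followed the scaling. With TMM, library totals and limma on log2(TPM + 1), both lay above the median of all tested genes (0.00, -0.40 and -0.48). Cyp2d26 (ENSMUSG00000022445.7, chr15:82790101-82794294, minus strand) had 913.9, 1155 and 991.1 CPM in mutant livers, against 829.7, 859.1 and 780.3 CPM in control livers, with a log2 fold change of 0.31 ± 0.11 (SE) that was not called (adjusted p = 0.0987). In TPM it had 642.2, 743.9 and 681.6 in mutant livers, against 845.3, 875.8 and 809.3 in control livers. All mutant libraries were thus above the controls on one scale and below them on the other. The log2 fold change was -0.09 with library totals (adjusted p = 0.523) and -0.29 with limma on log2(TPM + 1) (adjusted p = 0.0194), a fit in which 63.6% of all tested genes were called lower.

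Cyp2d22 (ENSMUSG00000061740.8, chr15:82370527-82380260, minus strand), which has been discussed as a mouse counterpart of human CYP2D6, had 215, 238 and 243 CPM in mutant livers, against 190.0, 198 and 173 CPM in control livers. The log2 fold change was 0.31 ± 0.10 (SE) and was not called (adjusted p = 0.0664), although DESeq2 called it (adjusted p = 0.0276), a fit that called 9.42% of all tested genes higher. In TPM it had 91.8, 93.0 and 101 in mutant livers, against 117.6, 122.7 and 108.9 in control livers, with no overlap in either scale. Its log2 fold change was -0.09 with library totals (adjusted p = 0.477) and -0.28 with limma on log2(TPM + 1) (adjusted p = 0.0195).

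**Figure D2:**
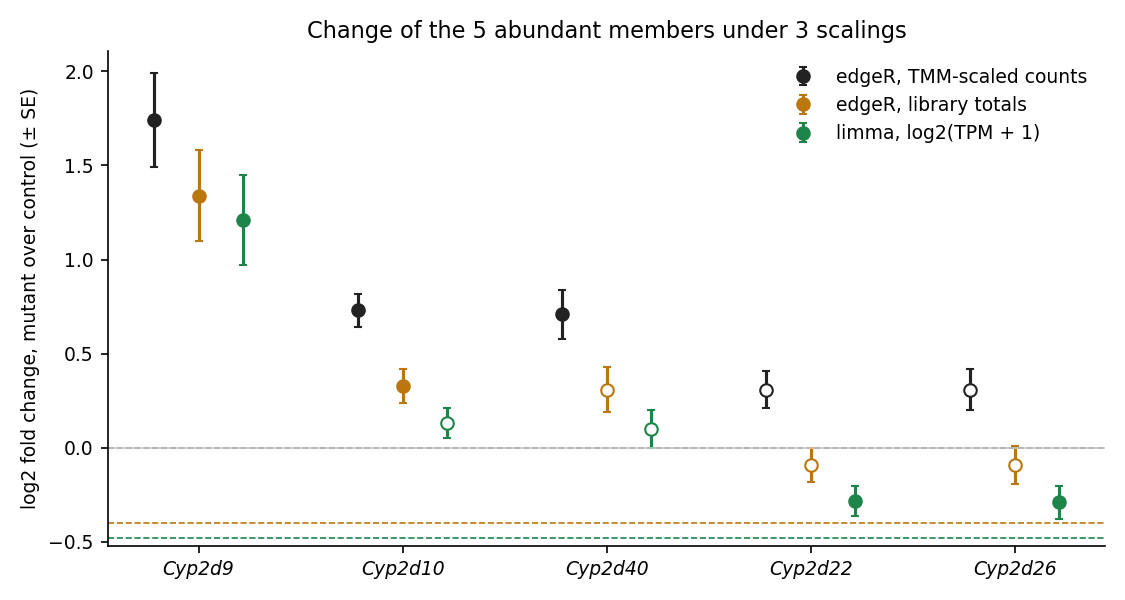
Log2 fold change of mutant against control livers with its standard error for Cyp2d9, Cyp2d10, Cyp2d40, Cyp2d22 and Cyp2d26. The 3 fits are edgeR with TMM, edgeR with library totals, and limma on log2(TPM + 1). Filled points passed an adjusted p under 0.05, open points did not, and dashed lines mark the median over all tested genes. Cyp2d9 lies at 1.74, 1.34 and 1.21 and is called in all 3, whereas Cyp2d26 and Cyp2d22 lie at 0.31, near -0.09 and near -0.29.

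The low members carried little information. Cyp2d12 (ENSMUSG00000096852.2, chr15:82555072-82560403, plus strand) had 9.004, 24.7 and 21.4 estimated counts in mutant livers, against 26.0, 28.7 and 14.7 in control livers. The groups overlapped, and its log2 fold change of 0.11 ± 0.60 (SE) was not called (adjusted p = 0.928). Its sign turned with library totals (-0.29). Cyp2d11 (ENSMUSG00000068085.6, chr15:82389154-82394022, minus strand) did not pass the filter and was not tested. It had 7.21, 6.30 and 7.12 estimated counts in mutant livers, against 1.05, 1.02 and 6.56 in control livers. In TMM-scaled CPM it had 0.189, 0.195 and 0.230 in mutant livers, against 0.0229, 0.0229 and 0.148 in control livers. The mutant libraries were all higher in CPM, and the groups overlapped in TPM. At under 10 estimated counts in every library, this order was not tested.

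The sum over the 7 members with a row was 3430, 3543 and 3371 TPM in mutant livers, against 3032, 2482 and 2542 TPM in control livers, a ratio of group means of 1.28. The groups did not overlap. In TMM-scaled CPM the sums were 4344, 4909 and 4412 in mutant livers, against 2660, 2148 and 2154 in control livers, a ratio of 1.96. With Cyp2d9 left out, the summed TPM was 1893, 2005 and 1846 in mutant livers, against 2029, 2005 and 1940 in control livers, a ratio of 0.96, and the groups overlapped. In CPM, the sum without Cyp2d9 had a ratio of 1.40.

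The composition of the family, which does not depend on library scaling, also differed. Cyp2d9 made up 44.8%, 43.4% and 45.2% of the summed Cyp2d TPM in mutant livers, against 33.1%, 19.2% and 23.7% in control livers. Its mean share was 19.2 percentage points higher (44.5 ± 0.963% in mutant livers and 25.3 ± 7.08% in control livers, SD, n = 3 each; two-sided exact permutation p = 0.1, the smallest that 3 libraries against 3 allow). Cyp2d26 made up 18.7%, 21% and 20.2% in mutant livers, against 27.9%, 35.3% and 31.8% in control livers. Cyp2d10 had 31.2%, 30.1% and 29.1% in mutant livers, against 32.5%, 37.0% and 36.8% in control livers. Cyp2d22 averaged 2.77 ± 0.206% in mutant livers and 4.37 ± 0.539% in control livers (SD, n = 3 each). For these 3 members every mutant library was below every control library (exact permutation p = 0.1 each). The share of Cyp2d40 overlapped between the groups, at 2.62 ± 0.245% in mutant livers and 3.16 ± 0.476% in control livers (exact permutation p = 0.2). These shares are parts of 1 total, so a higher share of Cyp2d9 lowers the others, and 7 of them were tested with no adjustment.

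**Figure D3:**
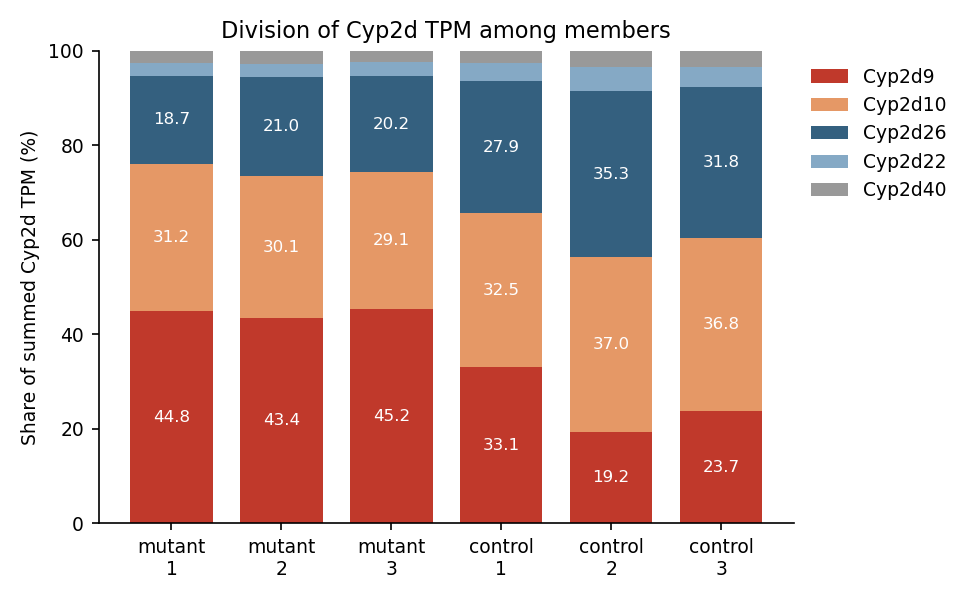
Share of Cyp2d9, Cyp2d10, Cyp2d26, Cyp2d22 and Cyp2d40 in the summed Cyp2d TPM, in percent, stacked for the 3 mutant libraries (left) and the 3 control libraries. Cyp2d9 takes 43.4% to 45.2% in mutant livers and 19.2% to 33.1% in control livers, and Cyp2d26 takes 18.7% to 21% in mutant livers and 27.9% to 35.3% in control livers.

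Ratios within a library are likewise free of library scaling. The TPM ratio of Cyp2d9 to Cyp2d10 was 1.44, 1.44 and 1.55 in mutant livers, against 1.02, 0.519 and 0.643 in control livers. The ratio of Cyp2d9 to Cyp2d26 was 2.39, 2.07 and 2.24 in mutant livers, against 1.19, 0.544 and 0.743 in control livers. Neither ratio overlapped between the groups (two-sided exact permutation p = 0.1 each, the smallest possible). With 3 libraries a group, this test cannot pass a threshold of 0.05, so the difference between these ratios is given as a description.

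The members are similar in sequence, which bears on how reads can be assigned. Coding sequences of Cyp2d9 and Cyp2d10 were identical at 92.5% of aligned positions, those of Cyp2d9 and Cyp2d11 at 93.3% and those of Cyp2d10 and Cyp2d11 at 94.7%, against 81.2% for Cyp2d9 and Cyp2d26 and 78% for Cyp2d9 and Cyp2d22. Of the windows of 150 bases along a transcript, the read length given in the labels, 1.54% for Cyp2d9 also occurred in Cyp2d10 or Cyp2d12. The share was 6.4% for Cyp2d10, 5.62% for Cyp2d11 and 0.598% for Cyp2d12. It was 0% for Cyp2d22, Cyp2d26 and Cyp2d40. How the authors' counting divided reads that match several genes is not given in the sources used here, so the values of Cyp2d11 and Cyp2d12 beside their abundant relatives are uncertain.

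Another 11 rows carry a Cyp2d symbol outside the 8 members, and 3 of them were tested. All 3 are annotated pseudogenes and all 3 were called higher, again beside 6.64% of all tested genes. Cyp2d41-ps had 5.37, 5.91 and 2.14 CPM in mutant livers, against 0.543, 0.670 and 0.516 CPM in control livers (log2 fold change 2.95 ± 0.44 SE, adjusted p = 0.00481). Cyp2d37-ps rose by 0.90 ± 0.14 (adjusted p = 0.00546) and Cyp2d38-ps by 0.97 ± 0.20 (adjusted p = 0.0165) on the log2 scale. Cyp2d37-ps was not called with limma on log2(TPM + 1) (0.29, adjusted p = 0.0828). Cyp2d38-ps was not called with library totals (0.58, adjusted p = 0.0515) or without control library 1 (0.93, adjusted p = 0.0592). No pseudogene was among the genes that shared an exact window of 150 bases with a member. How reads with inexact matches were counted is not given, so their assignment between such copies and the coding genes is uncertain. In the other direction, Cyp2d34 was listed at 0 in all 3 mutant livers and had 0.992, 3.00 and 8.06 estimated counts in control livers, and it was not tested.

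The members span chr15:82370527-82794294, a stretch of 423768 bases. Of 29 coding neighbours within 500000 bases on either side, 20 were tested. None was called higher (2 at an unadjusted p under 0.05), 1 was called lower and 19 were not called, with a median log2 fold change of 0.07, against 0.00 over all tested genes. With library totals 7 of the 20 were called lower, beside 31.6% of all tested genes. The gene called lower was Cyb5r3, the NADH-cytochrome b5 reductase.

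**Figure D4:**
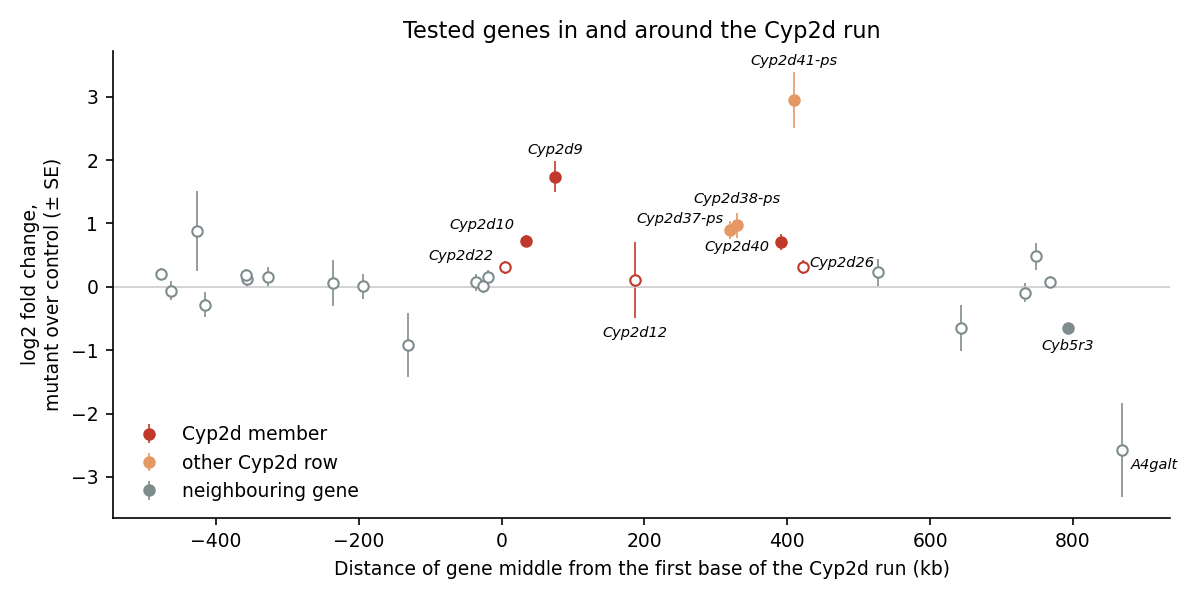
Log2 fold change of mutant against control livers by edgeR with TMM for the tested Cyp2d genes, Cyp2d pseudogenes and coding neighbours, plotted by distance from the start of the cluster. Filled points passed an adjusted p under 0.05. The Cyp2d genes and pseudogenes lie at 0.11 to 2.95, and Cyb5r3 is the only neighbour called, at -0.65.

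Genes of the electron supply did not move as a group. Of 5 tested, 2 were called higher, 2 lower and 1 not called, with a median log2 fold change of -0.04. With library totals 1 was called higher and 3 lower (median -0.44). For this and the lists below, edgeR with TMM called 6.64% of all tested genes higher and 6.82% lower. With library totals the shares were 2.05% and 31.6%, with a median of -0.40. Leaving out any library except mutant library 3 left 1 gene called higher. Por, which passes electrons from NADPH to P450 enzymes, had 865.5, 660.0 and 634.0 CPM in mutant livers, against 268.6, 244.3 and 169.0 CPM in control livers (log2 fold change 1.66 ± 0.19 SE, adjusted p = 0.00164). Every mutant library was above every control library for Por, also in TPM, and it was called in every alternative fit. Cyb5r3 had 284 ± 14.2 CPM in mutant livers and 447 ± 13.2 CPM in control livers (SD, n = 3 each), and fell by 0.65 ± 0.08 on the log2 scale (adjusted p = 0.00266). Cyb5b, the mitochondrial outer membrane form of cytochrome b5, had 225 ± 33.5 CPM in mutant livers and 415 ± 45.8 CPM in control livers, and fell by 0.88 ± 0.13 (adjusted p = 0.00506). None of 8 haem synthesis genes was called by edgeR with TMM and its filter, or by DESeq2 (median 0.19), and 3 were higher and none lower at an unadjusted p under 0.05. Of them 1 was called higher with no filter, with the replicate block and without mutant library 3, and 1 was called lower with library totals. Limma on log2(TPM + 1) called 6 of the 8 lower, beside 63.6% of all tested genes.

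Of 11 tested transcription factors known for CYP2D6 or Cyp2d genes, 2 were called higher and none lower (median 0.32). With library totals 1 was called higher and 2 lower (median -0.08), beside 2.05% and 31.6% of all tested genes. Hnf4a had 816.4, 681.3 and 800.4 CPM in mutant livers, against 444.3, 501.9 and 497.3 CPM in control livers (log2 fold change 0.67 ± 0.10 SE, adjusted p = 0.00597). In TPM it overlapped, with 181 ± 25.0 in mutant livers and 172 ± 12.3 in control livers (SD, n = 3 each), and it was called neither with library totals (0.27, adjusted p = 0.0777) nor with limma on log2(TPM + 1) (0.07, adjusted p = 0.599). Klf9, known in human cells as an activator of CYP2D6, had a log2 fold change of 0.84 ± 0.13 (adjusted p = 0.00561), overlapped in TPM and was not called by limma on log2(TPM + 1) (0.23, adjusted p = 0.205).

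Of 12 tested growth hormone and sex-bias factors, 2 were called higher, 1 lower and 9 not called (median 0.05). With library totals 1 was called higher and 5 lower (median -0.34), beside 2.05% and 31.6% of all tested genes. Stat5a, a transcription factor activated by growth hormone, fell by 1.03 ± 0.13 on the log2 scale (adjusted p = 0.00209). Trim24, a transcriptional coregulator, rose by 1.10 ± 0.15 (adjusted p = 0.00317). Cish, which is induced by growth hormone and restrains its signal, had 12.8, 21.9 and 4.50 CPM in mutant livers, against 3.83, 4.76 and 3.45 CPM in control livers. The groups overlapped, and its call (log2 fold change 1.71 ± 0.48, adjusted p = 0.0489) was kept in 1 of 6 fits that left out a library. Without mutant library 3, 3 genes of this list were called higher and 2 lower, and without each other library 1 was called higher and 1 lower.

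Beside Cyp2d9, 9 of 12 tested male-biased liver genes outside the family were called higher and none lower (median 2.58). With library totals it was 8 and none (median 2.18), and with limma on log2(TPM + 1) 7 and 1 (median 1.93). Leaving out a library left 6 to 8 called higher and none lower. Selenbp2, a selenium-binding protein gene, had 105, 95.9 and 237 CPM in mutant livers, against 19.5, 23.7 and 23.7 CPM in control livers (log2 fold change 2.71 ± 0.33, adjusted p = 0.00219). Cyp7b1, an oxysterol hydroxylase, had a log2 fold change of 2.66 ± 0.16 and the serpin gene Serpina1e one of 6.26 ± 0.44 (adjusted p = 0.000148 and 0.000254). Of 12 female-biased genes 8 were tested, with none called higher, 3 lower and 5 not called (median -2.68). The 3 were the P450 genes Cyp2a4 (log2 fold change -7.38 ± 0.76, adjusted p = 0.00103) and Cyp2b9 (-7.09 ± 0.81, adjusted p = 0.00164), and the hydroxyacid oxidase gene Hao2 (adjusted p = 0.0073). Mutant livers had 1.02, 11.4 and 1.08 estimated counts of Cyp2a4 and 5.0, 99.1 and 23.1 of Cyp2b9. With a library left out, the fitted values ran from -9.43 to -6.84 for Cyp2a4 and from -8.74 to -6.52 for Cyp2b9. These 3 genes and Cyp2b13 passed the low-count filter only through their control counts, which the list's counts and median partly reflect. Hao2 had 0 counts in all 3 mutant livers and was at least 73.8-fold lower, taking 3 counts over the group as the floor. The median is -2.68 also with Hao2 at that bound.

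Among P450 genes of families 1 to 3 outside Cyp2d, 35 of 50 were tested, with 8 called higher, 7 lower and 20 not called (median -0.11). With library totals, 4 were called higher and 14 lower (median -0.51), beside 2.05% and 31.6% of all tested genes (median -0.40). Leaving out control library 1 left 6 called higher, and leaving out each other library left 3 to 5. Cyp2c23, an arachidonate epoxygenase, had 195, 234 and 233 CPM in mutant livers, against 102, 79.9 and 86.2 CPM in control livers (log2 fold change 1.30 ± 0.12, adjusted p = 0.000782). Cyp2c38 had 15.4, 20.6 and 29.4 CPM in mutant livers, against 87.4, 114 and 107 CPM in control livers (log2 fold change -2.24 ± 0.23, adjusted p = 0.00097). Cyp2a22 was lower too (log2 fold change -3.65 ± 0.31, adjusted p = 0.000527).

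**Figure D5:**
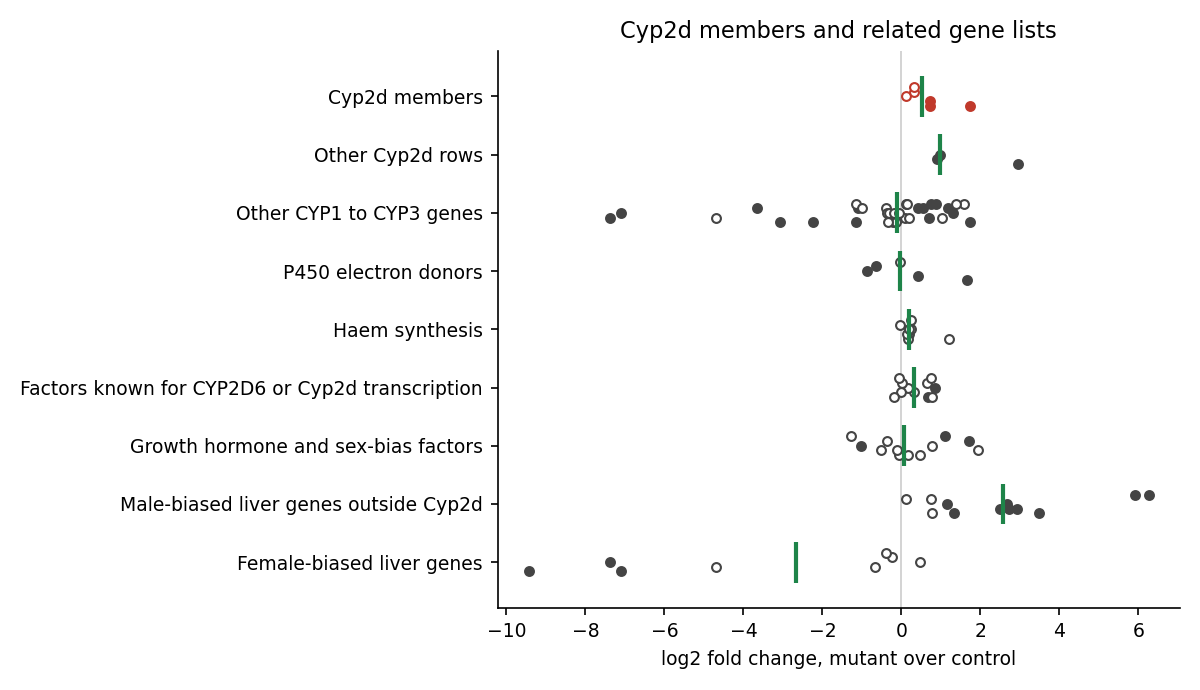
Log2 fold change of mutant against control livers by edgeR with TMM for every tested gene of the Cyp2d members and the gene lists, one row per list. The neighbours and the cell type markers are not shown. Filled points were called at an adjusted p under 0.05, and green bars mark list medians. The male-biased list has its median at 2.58 and the haem synthesis genes at 0.19, and the fitted value shown for Hao2 depends on its 0 counts in mutant livers.

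Marker lists of cell types varied in how far they differed between the groups. Of 7 hepatocyte markers 5 were called higher (3 without control library 3), and their summed TPM was 58677 to 65463 in mutant livers and 71074 to 83094 in control livers. The largest part of this sum was Alb, with a mean of 31140 TPM in mutant livers and 45261 TPM in control livers, and it was not called. Mean TPM in mutant livers was also lower for Apoa1, Ttr and Cyp2e1, and higher for Serpina1c, Tat and Cps1. With library totals 3 hepatocyte markers were called higher and 1 lower, and with limma on log2(TPM + 1) 3 higher and 2 lower. Marker lists of other cell types had lower summed TPM in every mutant library than in any control library, apart from the overlapping red blood cell markers. Lower TPM in mutant livers was the common direction on this scale. From TMM-scaled CPM to TPM every gene moves by -0.60, and limma on log2(TPM + 1) called 63.6% of all tested genes lower. Stellate cell markers, with 5 of 6 called lower, summed to 61.2 to 67.6 TPM in mutant livers and 184 to 202 TPM in control livers. Of 5 cholangiocyte markers, Spp1 was called lower and Sox9 higher (log2 fold changes -1.13 and 0.72), and Krt19, Krt7 and Epcam overlapped between the groups and were not called. No cholangiocyte marker was called higher when any library except mutant library 2 was left out. Their sum of 22.3 to 34.97 TPM in mutant livers and 76.5 to 113 TPM in control livers was mostly Spp1, with a mean of 26.2 TPM in mutant livers and 86.7 TPM in control livers. Of 5 adipocyte markers 2 were tested, Cfd and Fabp4, and both were called lower. The 5 summed to 3.37 to 6.29 TPM in mutant livers and 36.4 to 82.5 TPM in control livers, nearly all from these 2 genes. With a library left out, both calls stayed without control library 2 and without mutant library 2, and 1 of them stayed in each other fit. The defining markers were at or near 0: Lep in all 6 libraries, Plin1 in all but control library 2 (0.184 TPM), and Adipoq in all but mutant libraries 1 and 3 (0.0511 and 0.0615 TPM). Kupffer cell markers had 1 of 6 called lower (4 by DESeq2, 5 at an unadjusted p under 0.05), monocyte-derived cell markers 3 of 5, endothelial markers 2 of 5 and lymphocyte markers 0 of 5 (also 0 at an unadjusted p under 0.05 and 0 by DESeq2). Without control library 1 or 2, no Kupffer cell marker was called, and without mutant library 3, 4 were. Of the endothelial markers, 3 were called without control library 2 and none when any other single library was left out. Red blood cell markers had 1 of 5 called higher. The part of cell composition in the Cyp2d values was not tested.

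The genes whose pattern was most like Cyp2d9 were found by the root mean square difference of log2 CPM centred on each gene's mean, over 6 libraries and 7361 tested genes with a mean CPM of at least 10. The nearest was Gm31583 at 0.243, with 32.0, 52.3 and 39.1 CPM in mutant livers, against 15.8, 9.53 and 7.93 CPM in control livers. The complement gene C8b followed at 0.261, with 298, 274 and 267 CPM in mutant livers, against 75.6, 52.4 and 57.1 CPM in control livers. The complement gene C6 was at 0.263, with 266, 196 and 188 CPM in mutant livers, against 84.4, 59.9 and 50.7 CPM in control livers. In all 3, as in Cyp2d9, control library 1 was the highest control. Within the family the distance from Cyp2d9 was 0.613 for Cyp2d10, 0.667 for Cyp2d40, 0.821 for Cyp2d22 and 0.824 for Cyp2d26. It was 1.09 for Cyp2d12, whose mean CPM was below the minimum of 10. The 3 genes above were picked as the nearest of those compared, so their smaller distances follow in part from that choice. Genes are not independent replicates, and these distances are a description.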

How the data were processed

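RNA of 6 liver libraries was measured by paired reads of 150 bases, per the labels' protocols. Per the submitters' processing notes, cutadapt, STAR and the mm10 build were used. The sources used here do not give the counting program, the annotation or the strandedness. The authors deposited estimated counts per gene and TPM, with 0 columns left over. Over 10983 genes above 0.5 TPM in every library, the deposited estimated count was the TPM times a gene factor and a library factor within a relative deviation of 5.72e-10, so they are rescaled abundances and approximate counting error only roughly.

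After rounding, edgeR 4.0.16 (R 4.3.3) was run with filterByExpr, TMM factors and its quasi-likelihood F-test with group as the only term. Benjamini-Hochberg adjustment covered all 14286 tested genes. Where no other fit is named, adjusted p-values come from this one. Alternatives were RLE scaling, library totals, no filter, a CPM filter, DESeq2 1.42.0, limma 3.58.1 on log2(TPM + 1) and log2(TPM + 0.1), a replicate block, and each library left out. A fold change on the limma scale understates the change of low genes. Shares and ratios were compared by exact permutation (SciPy 1.17.1). Of these fits, only edgeR with TMM was tested on simulated data. The lowest chi-square per gene between libraries was 47.4, so no pair of libraries agreed within sampling noise.

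The members and gene lists were chosen with earlier results of these data known. Named genes were all members, Rxra, up to 3 called genes of smallest p in each functional list, all called neighbours and Cyp2d rows, and the 3 genes most like Cyp2d9, which was also the member of highest mean TPM; cell type marker lists are given by counts, and markers named there were chosen after their values were seen. Gene coordinates are from GENCODE mouse release M21 on GRCm38 (mm10), in which 99.5% of gene identifiers were found. Promoters are from RefSeq (GRCm38.p6) and were matched by symbol for 5 members. Coding sequences were aligned as nucleotides with Biopython 1.88.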

Additional observations from a re-analysis of the deposited data

How the results depend on the processing

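Cyp2d9 kept its direction and its call in every alternative. Leaving out each library gave it a log2 fold change of 1.53 to 2.11. The count of changed genes (1923) became 4801 with library totals, 7579 and 7526 with limma at a pseudocount of 1 and of 0.1, 6581 with limma and no filter, and 882 to 1514 with a library left out. In these 3 limma fits Cyp2d10 was at 0.13 and Cyp2d40 at 0.10, not called, and Cyp2d40 was at 0.31 with library totals. Cyp2d22 and Cyp2d26 turned to -0.09 with library totals, to -0.28 and -0.29 with log2(TPM + 1), filtered or not, and both to -0.29 with log2(TPM + 0.1). DESeq2 called Cyp2d22 at 0.31. Cyp2d12 turned to -0.29 with library totals and -0.16 with limma and no filter, and ranged from -0.20 to 0.48 with a library left out. Rxra was called at 0.40 with no filter and with DESeq2, was -0.20 in the limma fits, and ranged from 0.29 to 0.50 with a library left out. The log2 ratio of the summed members was 0.36 in TPM and 0.97 in TMM-scaled CPM. Between TMM-scaled CPM and TPM every gene moves by -0.60, which takes in the turns of Cyp2d22, Cyp2d26 and Rxra. Replicate numbers did not pair the libraries, since same-number correlations ran from -0.003 to 0.063. With the replicate block, 1558 genes were called, Cyp2d9 was at 1.81, and no call of a member changed. A group of 3 libraries limits the exact tests to p = 0.1.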
